A study of Mus musculus with 2 samples.

Results

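Intergenic sites of open chromatin that were called after TGFβ1 treatment and not in vehicle-treated cells are described here. NMuMG is a mouse epithelial cell line that was derived from the normal mammary gland. Both samples were starved of serum and insulin for 6 h. One then received 5 ng/ml of TGFβ1 and the other the diluent alone (vehicle), each for 2 h. Chromatin was mapped by DNaseI-seq, in which nuclei are digested briefly with DNaseI and places rich in short fragments are called as peaks. There were 2 samples, vehicle and TGFβ 2 h, with 1 peak list for each, so how much cultures of one condition differ is not known, and vehicle and TGFβ 2 h were compared without a test.

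The members were chosen by measured values, since the rule asked in which list a peak was called. A member was a distinct interval of the TGFβ 2 h list that shared no base with any vehicle peak, lay over 1000 bp from every annotated transcript start, had its midpoint outside protein-coding genes and lay at most 100 kb from the nearest protein-coding transcript start. Of 22600 distinct TGFβ 2 h peaks, 7611 shared no base with the vehicle list (33.7%), which is the value the rule itself used. Of these, 6519 lay outside promoter windows, 3420 also had their midpoint outside coding genes, and 2672 met the distance limit and are the members. A peak missing from the vehicle list did not pass the caller's threshold there, and signal below that threshold was not measured. The peaks used for comparison were 2656 intergenic TGFβ 2 h peaks within the same distance that overlapped a vehicle peak (shared peaks), 1083 vehicle peaks of the same location without a TGFβ 2 h counterpart (vehicle-only peaks), and the TGFβ 2 h-only peaks in gene bodies (3099) or beyond 100 kb (748).

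TGFβ binds a receptor pair on the cell surface, and the activated type I receptor phosphorylates Smad2 and Smad3, which join Smad4 and enter the nucleus. The Smad proteins bind short DNA sequences weakly and act with other factors, among them AP-1, a dimer of Jun and Fos family proteins that also answers to growth factor and stress kinases. Intergenic sites of open chromatin away from gene starts often hold enhancers, which can act on a gene over long distances. In mammary epithelial cells TGFβ arrests growth, induces matrix and adhesion genes and can drive the change from epithelial to mesenchymal cells. A promoter peak was found at 15 of 28 epithelial junction and identity genes in each list. Cdh1 and Krt8 were among them in both lists, and Epcam, Esrp1 and Grhl2 in neither. Lad1 had one in the TGFβ 2 h list alone and Cldn1 in the vehicle list alone. Of 8 markers of blood, endothelial, muscle and neural cells, 0 had one. The share of all coding genes with a promoter peak was not counted, so these counts are a description.

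The sequences of the 6 highest-ranked members are shown first, as the strongest single cases by the score of the list. All had the ceiling score of 1000, and among the 233 members at that score they were ordered by the number of rows the list gave them and then by width. Each line gives the nearest protein-coding gene, the 200 bp around the peak midpoint on mm9 and its plus strand. Capitals mark the AP-1 consensus (TGACTCA or its reverse, and no other letters) and the SMAD box (CAGACA or its reverse).
Gm355, chr2:128370348-128370547: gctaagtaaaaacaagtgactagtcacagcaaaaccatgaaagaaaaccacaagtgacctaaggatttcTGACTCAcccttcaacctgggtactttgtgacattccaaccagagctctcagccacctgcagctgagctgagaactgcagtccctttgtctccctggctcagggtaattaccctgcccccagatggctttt
Isg20, chr7:86070245-86070444: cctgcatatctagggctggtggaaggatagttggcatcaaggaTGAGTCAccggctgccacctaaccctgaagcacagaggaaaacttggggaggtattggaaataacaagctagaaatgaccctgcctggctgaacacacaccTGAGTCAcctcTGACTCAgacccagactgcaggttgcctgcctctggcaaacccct
Bms1, chr6:118317682-118317881: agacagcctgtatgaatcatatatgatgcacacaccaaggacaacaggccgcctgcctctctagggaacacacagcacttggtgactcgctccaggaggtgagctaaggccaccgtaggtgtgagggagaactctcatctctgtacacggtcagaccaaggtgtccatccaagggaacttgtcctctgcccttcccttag
Asb4, chr6:5392832-5393031: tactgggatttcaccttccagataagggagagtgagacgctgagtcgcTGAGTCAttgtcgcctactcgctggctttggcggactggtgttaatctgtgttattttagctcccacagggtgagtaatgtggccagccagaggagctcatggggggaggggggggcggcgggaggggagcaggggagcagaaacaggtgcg
Kcnk12, chr17:88275569-88275768: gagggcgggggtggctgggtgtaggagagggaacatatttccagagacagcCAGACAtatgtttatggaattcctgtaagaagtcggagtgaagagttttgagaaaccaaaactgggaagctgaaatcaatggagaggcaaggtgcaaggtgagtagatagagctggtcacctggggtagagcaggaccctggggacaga
Max, chr12:78146614-78146813: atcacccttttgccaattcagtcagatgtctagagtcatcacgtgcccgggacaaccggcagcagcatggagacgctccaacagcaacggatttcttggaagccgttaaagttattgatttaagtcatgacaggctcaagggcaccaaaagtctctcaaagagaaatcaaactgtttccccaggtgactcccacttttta

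The member near Gm355 was chr2:128369885-128371011, 46.5 kb upstream of the start, carried 8 rows and held 1 AP-1 match. The one nearest to Isg20, an interferon-induced exonuclease gene, lay 11.2 kb downstream of that gene's start and held 3 AP-1 matches in the window. The member near Asb4 held 1 AP-1 match, and the one upstream of Kcnk12, which encodes a potassium channel of the tandem-pore family, held 1 SMAD box. The windows nearest to Bms1, a ribosome assembly factor, and Max, the partner of Myc, held neither sequence. The vehicle peak nearest to these 6 members lay between 10.4 kb (Isg20) and 141.7 kb (Gm355) away.

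A further 8 windows belong to genes of the 6 lists used below. They are the best-scoring members with an AP-1 match near a listed gene, 1 for each gene, so the presence of AP-1 was the reason for showing them.
Itgb1, chr8:131190762-131190961: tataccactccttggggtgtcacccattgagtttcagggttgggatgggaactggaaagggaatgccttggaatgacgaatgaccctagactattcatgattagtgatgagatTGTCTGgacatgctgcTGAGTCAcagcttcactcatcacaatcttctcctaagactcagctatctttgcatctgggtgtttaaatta
Pmepa1, chr2:173132610-173132809: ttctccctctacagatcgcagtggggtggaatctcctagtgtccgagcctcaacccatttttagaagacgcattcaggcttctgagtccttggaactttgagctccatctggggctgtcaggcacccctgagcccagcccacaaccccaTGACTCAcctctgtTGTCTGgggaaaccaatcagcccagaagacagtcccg
Spred2, chr11:19735348-19735547: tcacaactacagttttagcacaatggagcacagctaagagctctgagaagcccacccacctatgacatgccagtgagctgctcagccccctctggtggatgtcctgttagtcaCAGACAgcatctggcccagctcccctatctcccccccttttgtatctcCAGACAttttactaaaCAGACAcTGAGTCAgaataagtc
Lamb3, chr1:195124390-195124589: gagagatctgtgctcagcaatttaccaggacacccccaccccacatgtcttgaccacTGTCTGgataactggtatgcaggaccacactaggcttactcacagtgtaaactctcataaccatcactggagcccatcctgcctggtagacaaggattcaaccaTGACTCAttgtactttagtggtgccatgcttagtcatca
Itga2, chr13:115723835-115724034: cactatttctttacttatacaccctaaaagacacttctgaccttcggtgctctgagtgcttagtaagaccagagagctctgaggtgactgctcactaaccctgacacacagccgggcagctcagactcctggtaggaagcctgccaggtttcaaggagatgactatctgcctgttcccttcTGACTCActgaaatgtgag
Klf6, chr13:5836773-5836972: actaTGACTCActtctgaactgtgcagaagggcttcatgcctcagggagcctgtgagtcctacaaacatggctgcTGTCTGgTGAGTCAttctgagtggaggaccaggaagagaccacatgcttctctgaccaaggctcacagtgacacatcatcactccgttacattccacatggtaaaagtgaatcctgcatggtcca
Dsp, chr13:38215630-38215829: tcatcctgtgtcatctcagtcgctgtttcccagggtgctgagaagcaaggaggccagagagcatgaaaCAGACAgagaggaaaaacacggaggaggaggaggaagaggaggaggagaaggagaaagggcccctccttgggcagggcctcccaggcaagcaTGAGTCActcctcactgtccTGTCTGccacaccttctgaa
Dusp5, chr19:53565543-53565742: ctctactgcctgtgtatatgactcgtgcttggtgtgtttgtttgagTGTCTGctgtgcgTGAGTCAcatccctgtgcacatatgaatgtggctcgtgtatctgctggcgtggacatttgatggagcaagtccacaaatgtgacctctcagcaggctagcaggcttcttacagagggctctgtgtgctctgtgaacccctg

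Itgb1 encodes the integrin β1 chain and Itga2 its α2 partner, Lamb3 a chain of laminin-332 and Dsp the desmosomal protein desmoplakin. Pmepa1 encodes a membrane protein that restrains Smad signalling, Spred2 and Dusp5 are inhibitors of the Ras and ERK pathway, and Klf6 is a zinc finger transcription factor. A SMAD box accompanied AP-1 in 7 of these 8 windows, with Itga2 as the exception, and the SMAD box had no part in choosing them. Over all 730 members with AP-1 the SMAD box was found in 32.9%, so these 8 windows are not typical of the members. The Spred2 window held 3 SMAD boxes, of which the last stood 1 base away from the AP-1 match. In the Klf6 window 1 SMAD box stood 1 base from an AP-1 match, and a second AP-1 match lay near the window's start.

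The members were then compared with TGFβ 2 h peaks at other locations. Peaks with no base in the vehicle list made up 50.2% of the 5328 near intergenic TGFβ 2 h peaks (95% Wilson interval 48.8 to 51.5). That share was 10.1% at promoters (9.54 to 10.7), 58.5% in coding gene bodies (57.2 to 59.8) and 64.7% beyond 100 kb (61.9 to 67.4). The near intergenic share thus lay between that of promoters and those of the other locations. These shares use the value that chose the members and are a description. In the vehicle list, peaks without a TGFβ 2 h counterpart made up 29.5% of the near intergenic peaks (28.0 to 31.0), 7.29% of promoter peaks, 33.5% of gene body peaks and 34.3% of far peaks, the same order of locations. These intervals cover the counting of peaks alone, and peaks are not replicates of a condition.

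**Figure D1:**
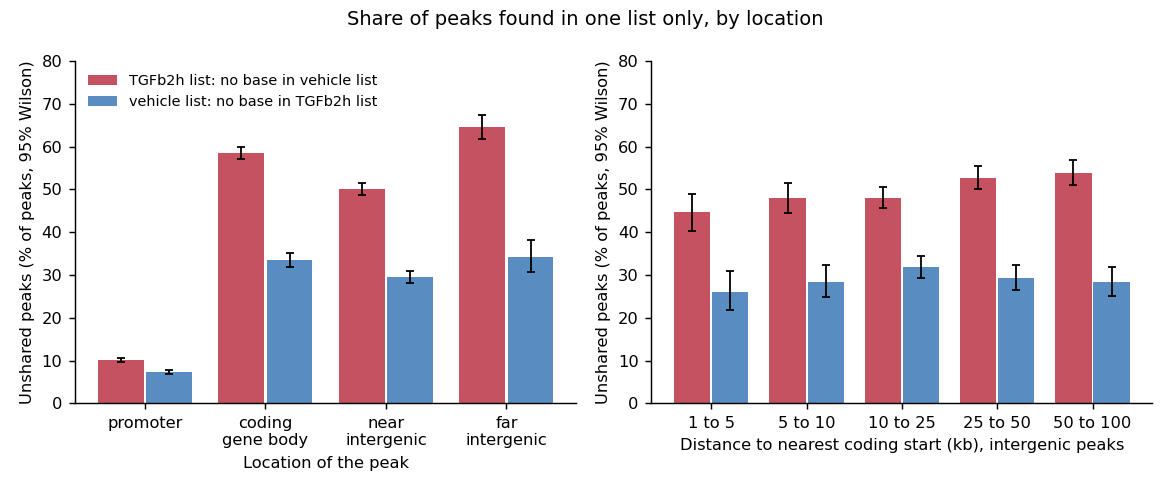
Share of peaks found in one list only (percent of peaks, bars, with 95% Wilson intervals) in the TGFβ 2 h list (red) and the vehicle list (blue), by location on the left and by distance to the nearest protein-coding transcript start for intergenic peaks on the right. With the lists as deposited the TGFβ 2 h bar is the taller at every location, from 10.1% at promoters to 64.7% in far intergenic DNA, and with lists of equal length the near intergenic share is 39.8%, against 1476 of 3674 vehicle peaks.

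There were 2.47 members for each vehicle-only peak of the same location (95% exact binomial interval 2.30 to 2.65 from counting). When the TGFβ 2 h list was reduced to the length of the vehicle list by its own score, 1477 members stood against 1476 vehicle-only peaks, a ratio of 1.00 (0.930 to 1.08). That setting removed the lowest-scoring peaks of the TGFβ 2 h list alone and so raised the vehicle-only peaks from 1083 to 1476 of 3674, while the members fell to 39.8% of the near intergenic TGFβ 2 h peaks. Lists of equal length leave nearly equal numbers of unshared peaks over all locations, so the ratio of 1.00 is largely fixed by the setting. The ratio of 2.47 was found with lists of 22600 and 17784 peaks, and why they differ in length was not tested. Per the study's reporting summary, the vehicle library had more filtered reads than the TGFβ 2 h library. Among near intergenic TGFβ 2 h peaks the share without a vehicle counterpart was 44.6% within 5 kb of a coding start (40.4 to 49.0) and 53.9% at 50 to 100 kb (51.01 to 56.8). The vehicle list gave 26.1% (21.9 to 30.8) and 28.4% (25.2 to 31.9) in these distance classes. Distance was also part of the rule, so these shares too are a description.

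The members lay at a median of 24.7 kb from the nearest coding start, with quartiles of 11.1 and 46.8 kb. They were found upstream of that start in 1838 cases (68.8%, 67.0 to 70.5). Shared peaks were upstream in 66.8% (65.0 to 68.6) and vehicle-only peaks in 65.3% (62.4 to 68.1). The rule left out midpoints inside coding genes, many of which are downstream of a start, so these shares are a description. A noncoding gene covered the midpoint of 144 members, of which 82 lay in lincRNA genes and 59 in other processed transcripts. Chromosome 1 held the most members (232) and chromosome X the fewest (37). On chromosome 15 the members made up 35.4% of 359 near intergenic peaks (30.6 to 40.5), the lowest share of any chromosome, and vehicle-only peaks made up 23.1% of the vehicle list's near intergenic peaks there. On chromosome 5 the members made up 57.3% of 309 (51.7 to 62.7).

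Because score and sharing were related in the lists, the following values describe the members and support nothing. The members' median score was 676, with quartiles of 601 and 819.25, on the deposited scale from 540 to a ceiling of 1000. The median of the shared peaks was 930, and that of the vehicle-only peaks on their own list's scale was 656. At the ceiling stood 8.72% of the members, 41.9% of the shared peaks and 5.08% of the vehicle-only peaks. Members were 442 bp wide at the median, shared peaks 598.5 bp and vehicle-only peaks 446 bp. The vehicle peak nearest to a member lay at a median of 19.3 kb, within 1 kb for 118 members and beyond 50 kb for 607.

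At the edges of the rule, the member closest to a vehicle peak was chr11:88830095-88830206 near Coil, 30 bp from it, with a score of 874. The intergenic shared peak with the smallest overlap was chr13:5845011-5845094 near Klf6, with 18 bp in common and a score of 997. The member farthest from a start was chr13:73297774-73298122, 99.997 kb upstream of Irx4, and the nearest peak outside the limit was chr12:78239630-78240179, 100.1 kb upstream of Fut8. The member closest to a promoter window was chr3:101889082-101889336 near Casq2, 1002 bp from a transcript start. The scores of these last 3 peaks were 720, 1000 and 550.

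Some members stood close together. Measured between midpoints, another member lay closer than 10 kb to 535 members (20.0%, 18.5 to 21.6). Linking members 10 kb apart or less, which adds 1 pair at exactly that distance, left 2135 alone and gave 216 pairs, 24 groups of 3, 7 groups of 4 and 1 group of 5, the last downstream of Bhlhe40 over 18.2 kb. Another TGFβ 2 h peak stood under 1000 bp from 292 members, and for 46 of these the neighbour carried the same score below the ceiling. Whether such neighbours are 1 site called in pieces was not tested. The members of the group near Gm11074 lay within 2.46 kb, with scores from 551 to 555.

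The rule had not used the DNA sequence of the peaks. The 200 bp around the midpoint of each peak were searched on both strands for 22 short motifs. The SMAD box was found in 30.02% of the members (28.3 to 31.8), 19.1% of the shared peaks (17.7 to 20.7) and 19.1% of the vehicle-only peaks (16.9 to 21.6). The AP-1 consensus was found in 27.3% of the members (25.7 to 29.0), 21.5% of the shared peaks (20.0 to 23.1) and 7.02% of the vehicle-only peaks (5.64 to 8.70). Over all 22600 TGFβ 2 h peaks the SMAD box was found in 18.3% and AP-1 in 15.1%, and promoter peaks held them in 10.3% and 3.73%.

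For the SMAD box, members stood 10.9 points above the shared peaks (95% Newcombe interval 8.59 to 13.2) and 10.9 points above the vehicle-only peaks (7.92 to 13.7). The size depended on the window. Over whole peaks, which are wider in the shared class, the difference to shared peaks was 3.65 points (0.963 to 6.32), and in 100 bp the differences were 5.89 and 6.48 points. Windows of the same size centred 2000 bp to either side of the members held it in 19.5% (18.5 to 20.6). Shared and vehicle-only peaks were thus at the level of the surrounding DNA for this sequence, 19.95% and 19.8% in their own flanks, and the members were above it by 10.498 points (8.47 to 12.5). Some windows repeat the SMAD box in a row. Without the 39 members, 13 shared and 2 vehicle-only peaks that held 3 or more copies, the members stood 10.2 points above the shared peaks (7.96 to 12.5) and 10.01 points above the vehicle-only peaks (7.04 to 12.9).

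For AP-1 the order was different. The flanks of the members held it in 3.87%, and all intergenic classes were above that level. Members stood 20.3 points above the vehicle-only peaks (17.9 to 22.5) and 5.82 points above the shared peaks (3.52 to 8.12). In 100 bp these differences were 10.6 and 2.70 points, and the difference to shared peaks ranged from 2.70 to 16.1 points over all settings tried. The members held 1 AP-1 match in 648 cases, 2 in 76 and 3 in 6. The perfect SMAD palindrome (GTCTAGAC) was rare, at 0.786% of the members, 0.264% of the shared and 0.0923% of the vehicle-only peaks, a difference of 0.522 points (0.133 to 0.957) and of 0.694 points (0.186 to 1.11). Its matches numbered 21 among the members.

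**Figure D2:**
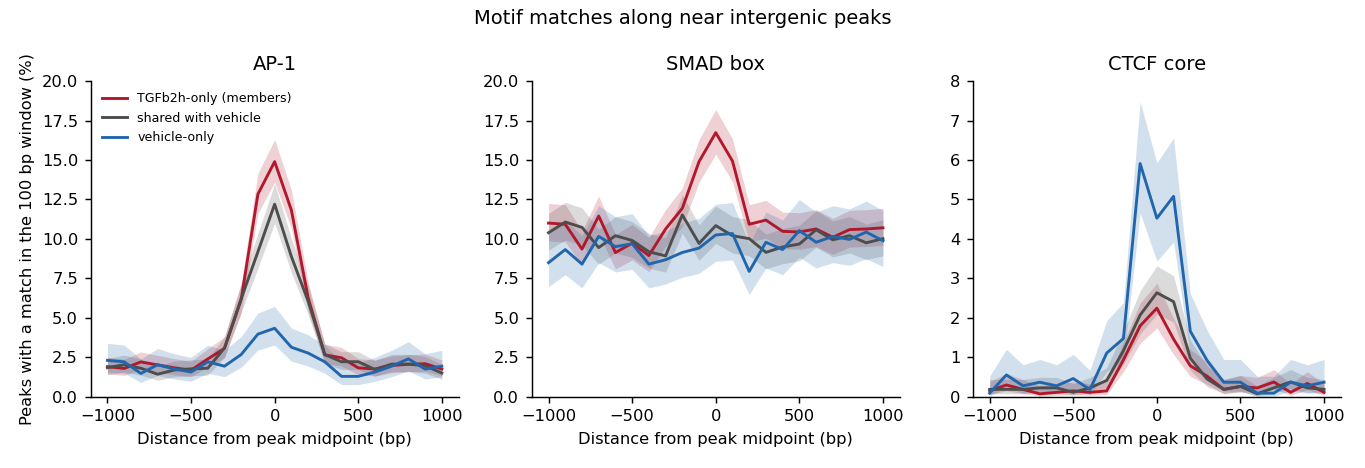
Percent of near intergenic peaks with a match in successive windows of 100 bp (lines, with 95% Wilson bands) against the distance from the peak midpoint in bp, for members (red), shared peaks (grey) and vehicle-only peaks (blue). AP-1 rises toward the midpoint to 14.9% in members and 12.2% in shared peaks, the SMAD box rises in members to 16.7% while the other classes stay near 10%, and the CTCF core is highest in vehicle-only peaks.

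The matches stood near the middle of the members. In windows of 100 bp the SMAD box reached 16.7% at the midpoint of the members, and 500 to 1000 bp away it ranged from 9.13% to 11.5% over 12 windows. In shared peaks the midpoint value was 10.8%, within the 9.45% to 11.1% found away from it, and in vehicle-only peaks it was 10.2%, within 8.40% to 10.53%. AP-1 reached 14.9% at the midpoint of the members, 12.2% in shared peaks and 4.34% in vehicle-only peaks, all above the most found away from it (2.40%). In members that held AP-1 the match nearest to the midpoint lay at a median of 41.5 bp from it. The median was 38.5 bp in both shared and vehicle-only peaks. Only matches inside the 200 bp window were counted, which limits this distance, so it does not show whether matches are centred.

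**Figure D3:**
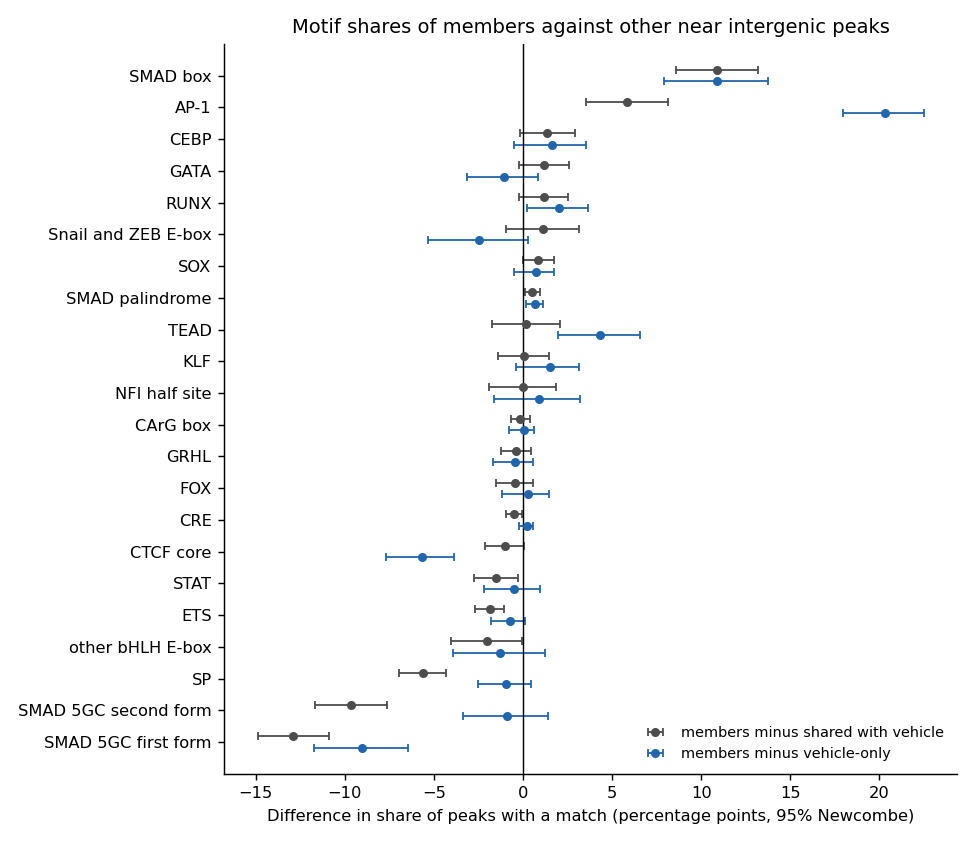
Difference in the share of peaks with a match between members and shared peaks (grey) or vehicle-only peaks (blue), in percentage points with 95% Newcombe intervals, for 22 motifs. The SMAD box stands 10.9 points to the right of 0 in both comparisons, and AP-1 stands to the right by 5.82 and 20.3 points. To the left with intervals below 0 stands GGCGC in both comparisons. GGCCG, SP, ETS, STAT, CRE and the other E-box (CAGCTG) do so against shared peaks alone, and the CTCF core against vehicle-only peaks alone.

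Of the 22 motifs, 3 were higher in members than in shared peaks with an interval that left out 0, namely AP-1, the SMAD box and the SMAD palindrome. Lower in members were 7, led by the GC-rich forms of Smad binding sites. The form GGCGC was in 10.7% of the members and 23.6% of the shared peaks, and the form GGCCG was in 12.5% and 22.1%. The SP motif (GGGCGGG), bound by Sp1 and its relatives and frequent at promoters with CpG islands, was in 3.85% and 9.49%. The median GC content of the windows was 51% for members, 54% for shared peaks and 52% for vehicle-only peaks, and the GC-rich motifs were not compared at like GC content.

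Against vehicle-only peaks, 5 motifs were higher in members: AP-1, the SMAD box, the SMAD palindrome, TEAD (GGAATG) and RUNX (TGTGGTT). TEAD factors act with YAP and TAZ in the Hippo pathway, and their motif was in 15.0% of the members and 10.7% of the vehicle-only peaks, 4.33 points apart (1.96 to 6.54). The RUNX motif was in 7.67% and 5.63%, 2.04 points apart (0.234 to 3.67). Lower in members were the form GGCGC and the core motif of CTCF, the factor that marks insulators and loop anchors. CTCF was found in 3.82% of the members and 9.51% of the vehicle-only peaks, a difference of -5.69 points (-7.70 to -3.90). By score class the CTCF difference was -2.26 points in the lowest bin, with an interval that held 0 (-5.40 to 0.344), and between -6.50 and -6.13 points in the next 3 bins, each with an interval below 0. Among members at the score ceiling 1 of 233 held the CTCF core (0.429%, 0.0758 to 2.39), and among vehicle-only peaks at their ceiling 10 of 55 (18.2%, 10.2 to 30.3). Against shared peaks the CTCF difference was -1.04 points over all (-2.14 to 0.0566). By score class it was -7.98 points in the lowest bin (-12.9 to -4.05) and -3.72 in the second (-7.31 to -0.683). The remaining score classes had intervals that held 0. Intervals also lay below 0 in 2 of 4 width quartiles and 1 of 4 GC quartiles, and in 0 of 5 distance classes.

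The E-box bound by Snail and ZEB factors (CAGGTG), repressors of epithelial genes, was found in 17.8% of the members, 16.7% of the shared peaks and 20.2% of the vehicle-only peaks. Both intervals of the difference, -0.931 to 3.13 and -5.31 to 0.286, held 0. The FOX, GRHL, KLF, CEBP, NFI, SOX, GATA and CArG motifs also had intervals that held 0 in both comparisons. The TGFβ 2 h-only peaks in gene bodies had nearly the same content as the members. They held AP-1 in 26.6% and the SMAD box in 30.4%, and 21 of 22 motifs differed from the members by an interval that held 0 (CEBP was the exception, 1.85 points higher in members, 0.373 to 3.35). Beyond 100 kb, AP-1 was found in 28.9% and the SMAD box in 26.7%, with intervals of the difference from -5.29 to 2.02 and from -0.425 to 6.80. Against these far peaks, 3 motifs were higher in members and 1 was lower. The CTCF core was in 3.82% of the members and 0.936% of the far peaks (1.70 to 3.81 points higher), the Snail and ZEB E-box in 17.8% and 13.8% (1.00 to 6.74) and the form GGCCG in 12.5% and 9.09% (0.801 to 5.64). The FOX motif differed by -1.68 points (-3.64 to -0.0798).

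A search without named motifs was added after the first results were seen. All 2080 words of 6 bases, each counted with its reverse, were ranked by the difference between members and another class. Against shared peaks the SMAD box CAGACA ranked first, in 30.02% of the members and 19.1% of the shared peaks. The overlapping word AGACAG came next (28.0% and 20.03%). Words from AP-1 followed, with GACTCA in 34.4% of the members and 27.3% of the shared peaks. Against vehicle-only peaks the AP-1 word GAGTCA led, in 34.9% of the members and 14.9% of the vehicle-only peaks, and the SMAD box was at rank 4. Against the members' own flanks GAGTCA also led (34.9% and 11.4%), and the SMAD box was at rank 5.

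Peak score, base content and distance differed between the classes, so the shares were also compared within classes of each. Each whole list was cut at its score quartiles below the ceiling, which gave 4 bins, and ceiling peaks formed a class of their own. AP-1 was found in 20.8% of the members in the lowest bin (18.1 to 23.8) and in 42.1% at the ceiling (35.9 to 48.5). The SMAD box went from 25.7% (22.7 to 28.9) to 41.6% (35.5 to 48.0) between the same classes. Among shared peaks AP-1 went from 9.44% to 25.2%, and the SMAD box stayed between 15.9% and 21.0%. At the ceiling the members stood above the shared peaks by 16.9 points for AP-1 (10.2 to 23.8) and by 22.0 points for the SMAD box (15.3 to 28.7).

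**Figure D4:**
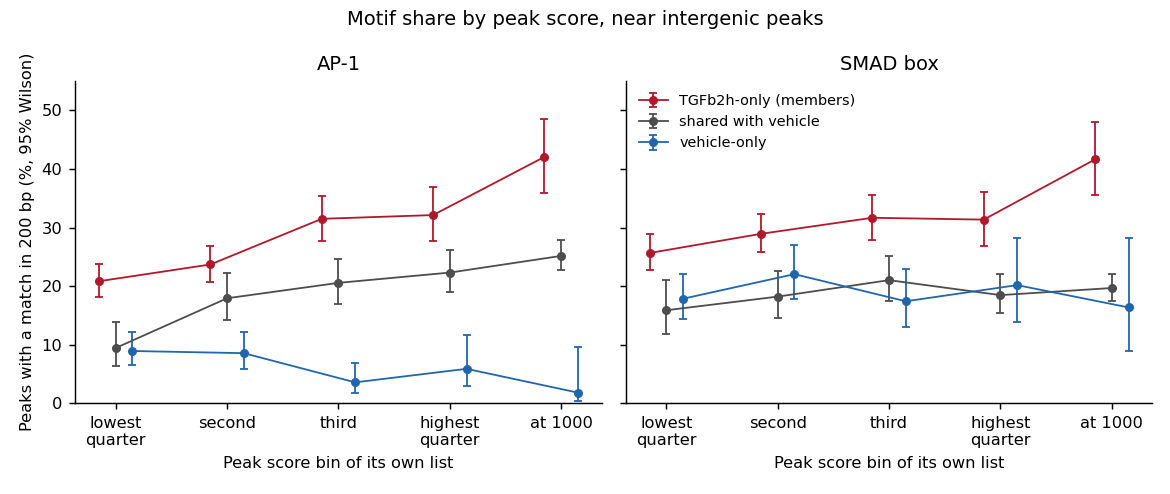
Percent of near intergenic peaks with a match within 200 bp (points, with 95% Wilson intervals) by score class of the peak's own list, for AP-1 on the left and the SMAD box on the right. Members (red) stand above both other classes in every score class, from 20.8% to 42.1% for AP-1 and from 25.7% to 41.6% for the SMAD box.

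The SMAD box difference kept an interval above 0 against both classes in all 5 score classes, all 5 distance classes, all 4 GC quartiles and all 4 width quartiles. Against shared peaks it ran from 6.12 to 16.5 points over the GC quartiles. The AP-1 difference to vehicle-only peaks also kept an interval above 0 in all of these classes, from 11.9 to 40.2 points over the score classes and from 17.7 to 22.0 over the GC quartiles. The AP-1 difference to shared peaks held in all score and width classes. It held upstream of the nearest start (6.69 points, 3.86 to 9.50) but not downstream, where the interval held 0 (3.83 points, -0.128 to 7.78). It held in 3 of 5 distance classes and in 1 of 4 GC quartiles, with differences of 3.90, 1.40, 2.96 and 8.21 points from the lowest to the highest GC, and the first 3 of these lay within counting error.

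Both sequences were present in 240 members (8.98%, 7.96 to 10.1), AP-1 alone in 490, the SMAD box alone in 562 and neither in 1380 (51.6%, 49.8 to 53.5). Both were present in 4.74% of the shared peaks (4.00 to 5.62) and 13 of 1083 vehicle-only peaks. Within the members the SMAD box was found in 32.9% of those with AP-1 and 28.9% of those without, a difference of 3.94 points whose interval (0.0401 to 7.95) barely left out 0, and among shared peaks that difference was 3.75 points (0.106 to 7.67). The members' excess of SMAD boxes over shared peaks was 10.8 points among peaks with AP-1 (5.93 to 15.6) and 10.6 points among peaks without it (8.00 to 13.2). Where both were present, the nearest pair of matches lay at a median of 40 bp centre to centre in members and 44 bp in shared peaks, and 67 of 240 and 37 of 126 pairs lay within 20 bp.

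Each member was assigned to the nearest protein-coding transcript start, which says where it lies and not which gene it acts on. The members fell to 2059 genes, 9.21% of 22348, and the shared peaks to 1959 (8.77%). Of the 2059 genes, 1617 had 1 member, 321 had 2 and 121 had 3 or more. A shared peak was also assigned to 615 of them and a vehicle-only peak to 290. The share of all coding genes with a vehicle-only peak was not counted. The 290 and the vehicle-only counts of the gene lists below therefore have no background beside them.

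Most members were assigned to Bhlhe40 and Tomm20, with 6 each. The counts per gene are of intervals, and some neighbours lie close together with the same score. Near Bhlhe40, chr6:108638180-108638817 and chr6:108638922-108639065 both scored 861. Near Camk1g, chr1:195203072-195203259 and chr1:195203338-195203410 both scored 667. Whether such neighbours are separate sites was not tested. Bhlhe40 (chr6:108610623-108616919) encodes a basic helix-loop-helix repressor of the clock and of stress responses. Its members lay from 7.49 to 45.3 kb downstream of the start, had scores from 789 to 1000, and held AP-1 in 3 cases and the SMAD box in 4. A shared peak was assigned to it once and a vehicle-only peak never. Tomm20 (chr8:129458043-129469723), a receptor of the mitochondrial import machinery, had members 18.2 to 97.8 kb downstream, with scores from 544 to 881 and none at the ceiling.

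Another 11 genes had 5 members each. Spsb1 encodes an adaptor of a ubiquitin ligase. Its members reached from 11.4 to 48.5 kb, held the SMAD box in 3 cases and AP-1 in 1, and no shared peak was assigned to it. Dusp10 encodes a phosphatase that inactivates the kinases JNK and p38. Its members had scores from 676 to 854, 4 of them 79.1 to 82.8 kb upstream and within 4.04 kb of each other. These 4 include chr1:185754689-185754761 and chr1:185757734-185757806, each 73 bp wide and close beside a wider member. Gadd45a, a gene of the growth arrest and DNA damage response, had 5 members 40.9 to 69.4 kb upstream, of which 3 held the SMAD box. The strongest, at the ceiling, held 4 copies and lay 0.165 kb from a vehicle peak.

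Krt80, which encodes an epithelial keratin, had members from 2.48 to 36.4 kb on both sides, 3 with AP-1. No shared or vehicle-only near intergenic peak was assigned to it. A vehicle peak did lie 1.49 kb from the member 2.48 kb upstream, and one lay 3.55 kb from the member 36.4 kb downstream. Kcnk12 had 5 members 42.3 to 78.3 kb upstream, 3 of them at the ceiling, and no vehicle peak lay within 72.07 kb of any of them. Camk1g, a calcium-dependent kinase gene, and Asprv1, a protease gene of the epidermis, had 3 shared peaks each beside their 5 members. The members of Asprv1 held neither AP-1 nor the SMAD box. Among the genes with 4 members, Zbtb38, a zinc finger protein that binds methylated DNA, had scores from 799 to 1000, and Nhsl1 from 899 to 1000.

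The gene lists, 6 in number, were then read for members. Of all 163 listed genes, 59 had a member (36.2%, against 9.21% of all coding genes) and 60 had a shared near intergenic peak (36.8%, against 8.77%). The lists were chosen with earlier results of these data known, so these shares are a description. The listed genes held 84 members, 9 at the ceiling, 35 with AP-1 and 25 with the SMAD box.

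In the TGFβ pathway and feedback list 10 of 28 genes had members, 16 in all, of which 8 held AP-1 and 4 the SMAD box. Among the ligands, Tgfb2 (chr1:188447065-188529871) had 3 members. The strongest, chr1:188410753-188411572, scored 1000, lay 47.0 kb downstream of the start and held 1 SMAD box, and the others scored 616 and 580. Tgfb1 and Tgfb3 had none. Gdf15, a distant relative of TGFβ, had 1 member 1.73 kb upstream with a score of 946. Ltbp2, which encodes a matrix protein related to those that hold latent TGFβ, had 1 member 8.63 kb upstream with both AP-1 and the SMAD box and a score of 670.

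Among receptors and signal carriers, Tgfbr3, the co-receptor betaglycan, had 3 members with scores of 949, 750 and 693, of which the weakest, 5.84 kb upstream, held AP-1. Smad3, the Smad that carries the TGFβ signal, had 1 member 81.5 kb upstream with AP-1 and a score of 709. Smad2, Smad4 and Tgfbr2 had none. Pmepa1 had 2 members upstream of its start. The nearer one, chr2:173132454-173132966 at 30.7 kb, scored 1000 and is among the sequences printed above. The farther one, chr2:173146394-173147651 at 45.0 kb, scored 904, carried 9 rows and held 3 SMAD boxes. Smad7, which blocks the receptor, had 2 members 4.21 and 42.2 kb upstream with scores of 566 and 677, beside 3 shared peaks. Tgif1, a corepressor of Smad proteins, had 1 member 9.31 kb downstream with AP-1 and a score of 727. Skil, Ski and Smad6 had none.

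**Figure D5:**
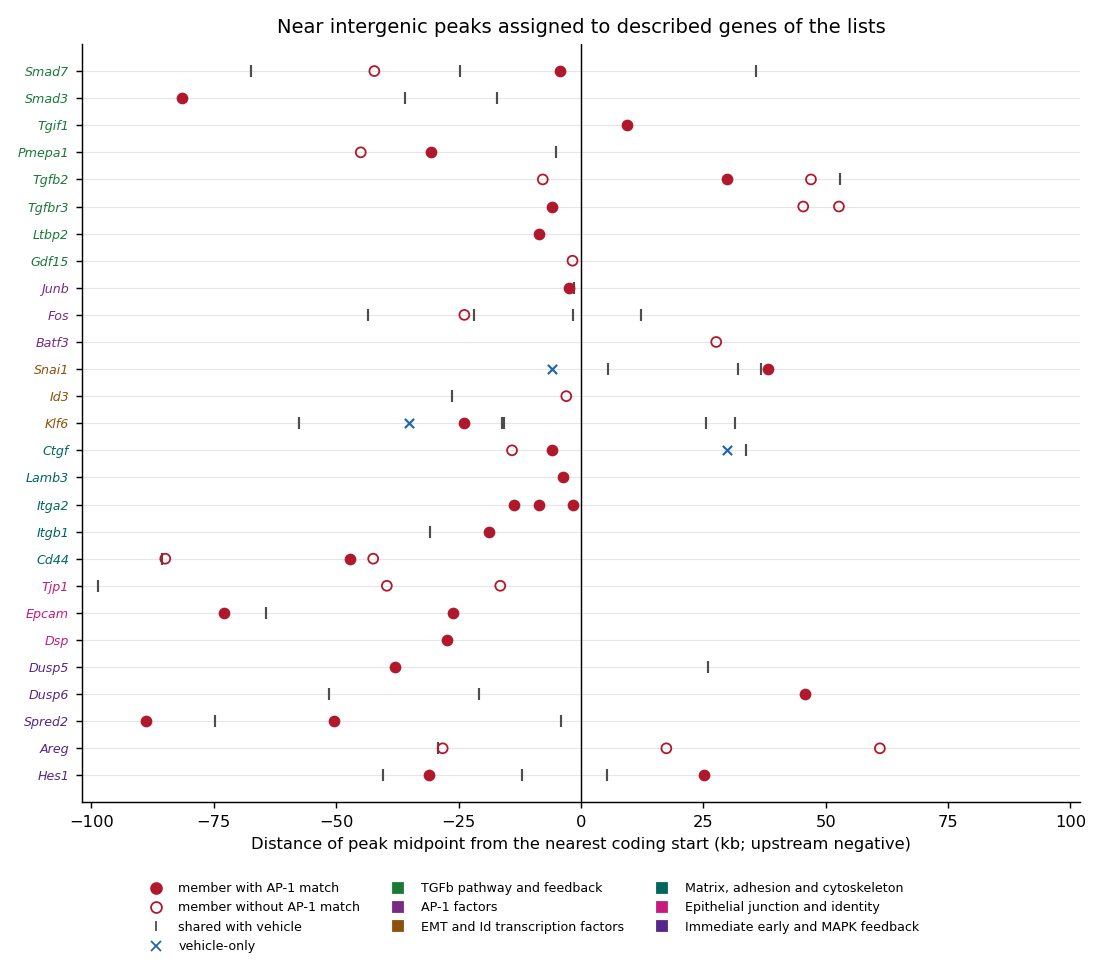
Positions of near intergenic peaks assigned to 27 listed genes with a member that are described here, as distance in kb from the nearest coding start (upstream negative). Red circles are members, filled where the 200 bp window held AP-1, grey bars are shared peaks and blue crosses vehicle-only peaks, and the colours of the gene names mark the 6 lists. The 44 members drawn lie on both sides of the starts, and Itga2 has 3 filled circles and no other mark.

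Of 17 AP-1 factor genes, 3 had a member and 7 a shared peak. Junb had 1 member 2.53 kb upstream with AP-1 and a score of 804, 0.565 kb from a vehicle peak, Fos had 1 at 23.8 kb upstream with a score of 657, and Batf3 had 1 at 27.6 kb downstream with a score of 727. In the list of EMT and Id transcription factors 9 of 22 genes had members. Snai1, the repressor of E-cadherin, had 1 member 38.1 kb downstream with AP-1 and a score of 802, 0.891 kb from a vehicle peak. Id3, an inhibitor of helix-loop-helix factors, had 1 member 2.997 kb upstream at the ceiling with the SMAD box. Klf6 had 1 member 23.9 kb upstream at the ceiling with both sequences, beside 5 shared peaks. Zeb1, Zeb2, Twist1 and Snai2 had none. A vehicle-only peak was assigned to 9 of the 22 genes.

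The matrix, adhesion and cytoskeleton list had members at 17 of 42 genes, 24 in all. A shared peak was assigned to 11 of its genes and a vehicle-only peak to 2. Itga2 (chr13:115626124-115722249) had 3 members 1.69, 8.52 and 13.7 kb upstream, with scores of 1000, 615 and 883, each with AP-1, and no other near intergenic peak. The nearest of them lay 0.899 kb from a vehicle peak. Ctgf, a matricellular growth factor gene, had 2 members 5.92 and 14.1 kb upstream with scores of 588 and 849. Itgb1 and Lamb3 had 1 member each at the ceiling, 18.7 and 3.66 kb upstream, both with AP-1 and the SMAD box. Cd44, the hyaluronan receptor, had 3 with scores from 604 to 735.

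Epithelial junction and identity genes had members at 8 of 28 genes and shared peaks at 9. Epcam, an epithelial adhesion molecule, had 2 members 26.1 and 73.02 kb upstream with AP-1 in both. Dsp had 1 at 27.5 kb upstream with a score of 950. Tjp1, the tight junction protein ZO-1, had 2 with scores of 812 and 640. Cdh1 (E-cadherin), Esrp1 and Grhl2 had none.

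Immediate early and MAPK feedback genes had members at 12 of 26 genes, 19 in all, and shared peaks at 14. Spred2 had 2 members 50.4 and 88.9 kb upstream with scores of 542 and 1000, both with AP-1. Areg, which encodes the EGF receptor ligand amphiregulin, had 3 with scores of 899, 638 and 546 and none with AP-1. Hes1, a repressor in the Notch pathway, had 2 on either side of its start with AP-1 in both and scores of 832 and 649. Dusp5 and Dusp6, phosphatases of ERK, had 1 each with AP-1 and scores of 899 and 898. Egr1, Dusp1 and Myc had none. With 1 list per condition, none of these counts has a replicate check.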

How the data were processed

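DNaseI-seq peak lists of 2 samples of NMuMG cells were used, vehicle and TGFβ 2 h, grouped by title, with 1 list each. Per the study's methods and the submitters' processing notes, the authors aligned reads to mm9 and called peaks with MACS2 (2.1.2), and deepTools is also named. Per the methods, DNaseI-seq followed the study's ATAC-seq pipeline, which kept peaks that were reproducible between replicates, with DNaseI options that are not given. The labels speak of duplicates and the raw files are listed as merged, so whether that filter was applied to these lists is not clear. The labels also disagree on the composition of the vehicle. Scores are the authors' deposited whole numbers, from 540 to a ceiling of 1000, and rank peaks within a list only. Read depth is not in the lists. The study's reporting summary gives read totals, which entered no calculation.

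Rows with the same interval (68542 for TGFβ 2 h, 70449 for vehicle) were collapsed to distinct peaks. Positions are 1-based on mm9, and sequence and gene models were NCBIM37 and GENCODE mouse release M1. A minimum overlap of 1 bp made a peak shared. Motifs were exact matches on both strands in 200 bp around the midpoint and, as background, 2000 bp to either side. Those whose letters the report does not give were ETS as CCGGAAG, FOX as TGTTTAC, KLF as GGGTGTG, SOX as ACAATGG, the motif of GATA factors as AGATAA, the NFI site as TTGGCA, the other E-box as CAGCTG, CRE as TGACGTCA, GRHL as AACNNGTT, CEBP as TTGCNNAA, STAT as TTCNNNGAA, and CTCF and CArG by name. Intervals (95%: Wilson for shares, Newcombe for differences, exact binomial for ratios) cover counting error only, were not adjusted for the number compared and were tested on simulated data. Python 3.11.15, numpy 2.4.6, scipy 1.17.1 and matplotlib 3.10.9 were used.

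Named genes were the 15 with most members and at most 8 genes with a member from each of 6 lists, by number of members, then score. Listed genes without a member are named as such. Some genes and regions that this rule names are not reported here. Named regions were the highest-ranked members, those of named genes and those at the limits of the rule. Members, gene lists and motifs were chosen with earlier results of these data known. The word search, the classes of score, distance, GC and width, the counts of both motifs together, the SMAD box shares without repeats, the marker promoters and the counts of close neighbours were added after the data were seen. Alternatives covered overlap, score, list length, promoter window, distance and motif window.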

Additional observations from a re-analysis of the deposited data

How the results depend on the processing

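No paired analysis was possible because there was a single list for vehicle and a single one for TGFβ 2 h. Over 9 results and 14 settings there were 117 alternative values, of which 82 stayed within the 95% interval of the reported value, or within 1.5 times the count, 35 moved and none reversed. All 56 alternative differences in motif share kept an interval above 0. The alternatives for the SMAD box were added after the data were seen. With the TGFβ 2 h list reduced to the vehicle list's length there were 1477 members, a ratio of 1.00068, a member share of 39.8%, AP-1 in 32.2% of the members (24.2 points above vehicle-only, 9.06 above shared peaks), and the SMAD box in 32.7% (13.9 points above vehicle-only). This setting removes the lowest-scoring peaks of the TGFβ 2 h list alone. At or above the median score there were 934 members, a ratio of 3.94, a share of 54.7% and AP-1 in 35.1% (26.7 points above vehicle-only, 16.1 above shared), with the SMAD box 13.7 points above shared peaks. This setting keeps only ceiling peaks of the vehicle list. Reciprocal overlap gave a ratio of 2.26, a share of 55.6% and an AP-1 difference to shared peaks of 3.50 points. The member share was 47.9% with peaks 1000 bp apart shared, 48.7% with coding starts only and 51.8% at 200 kb. Windows of 100 bp gave AP-1 in 14.9% (10.6 and 2.70 points above vehicle-only and shared) and the SMAD box in 16.7% (6.48 and 5.89 points). Windows of 400 bp gave AP-1 in 42.6% (28.5 and 8.97 points) and the SMAD box in 47.6%. Whole peaks gave AP-1 in 45.7% (29.0 points above vehicle-only) and the SMAD box in 50.7% (3.65 points above shared, which are wider). Wider windows hold more matches by construction. For the other moves the cause was not tested. The lists hold no read depth, so no value was adjusted for it, and with 1 list per condition the spread between cultures could not be estimated.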
